A study of Mus musculus with 6 samples.

Results

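The 5 genes Saa3, Lcn2, Hp, Serpina3n and Lbp encode acute phase proteins, and they were read here by symbol from a table of raw read counts for 16982 genes. They were chosen because their counts rose in 1 of the 3 Rnf20 knockout libraries, so the rise itself is described below and not tested. The study asked how loss of RNF20, an E3 ligase for monoubiquitination of histone H2B, changes the transcriptome at day 3 of OSKM reprogramming. It sequenced RNA from 3 WT and 3 Rnf20-/- samples. All 6 came from C57BL/6 reprogrammable cells, which are mouse embryonic fibroblasts (MEF) given OCT4, SOX2, KLF4 and C-MYC by retrovirus. The knockout cells carried floxed Rnf20 alleles, with loxP sites around part of the exons, and a ubiquitous Cre switched on by 4-OH tamoxifen. The labels list every sample as untreated, and whether WT cells received the drug is not given in the sources used here. The methods place infected cells on MEF feeders treated with mitomycin-C, and whether feeders were present at harvest is not given there either.

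Libraries held between 20545442 and 21746898 counts. Rnf20 itself had 106 to 107 CPM (counts-per-million, on the TMM-normalized library size) in WT and 16.4 to 18.7 CPM in knockout libraries. Knockout replicate 3 stood apart from its group over all tested genes. The chi-square statistic of the counts over tested genes, near 1 per gene where libraries differ by sampling alone, was 8.57 between knockout replicates 1 and 2 and 92.4 and 101 between each of them and knockout replicate 3. Among WT libraries it was 6.04 to 8.92. Fitted results that include knockout replicate 3 are therefore given with the fit of the other 5 libraries or with the counts of each library.

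Acute phase proteins are plasma proteins that the liver releases in large amounts after infection or injury, and several are also made by fibroblasts, adipocytes and macrophages. Their genes are classical targets of IL-6, which acts through gp130 and STAT3, and of IL-1, TNF and bacterial lipopolysaccharide, which act through NF-kB. Transcription factors of the C/EBP family, C/EBPbeta and C/EBPdelta among them, bind many of their promoters.

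The promoter sequences are shown because such factors act there. RefSeq windows from 250 bases before to 50 bases after the start site, on build GRCm38.p6, were available for 3 of the 5 members, and the upstream part outside annotated UTRs is printed 5′ to 3′ on the strand of the gene. The motifs searched were TTGCNNAA for C/EBP, TTCNNNGAA for STAT factors and the kappaB consensus for NF-kB, each on both strands, and TATANA for a TATA box on the strand of the gene. They were chosen with the promoters in view, matches of TATANA could overlap, and capitals mark every base inside a match. The Saa3 window lies at chr7:46715707-46715926 (minus strand), the Lcn2 window at chr2:32387798-32387989 (minus strand) and the Serpina3n window at chr12:104406458-104406677 (plus strand). The Lcn2 window also holds part of an annotated exon of Lcn2 itself.
Saa3: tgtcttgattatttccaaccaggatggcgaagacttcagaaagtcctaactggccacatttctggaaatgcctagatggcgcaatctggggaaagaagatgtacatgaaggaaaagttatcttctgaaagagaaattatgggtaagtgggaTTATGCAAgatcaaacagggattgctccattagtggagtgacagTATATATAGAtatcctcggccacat
Lcn2: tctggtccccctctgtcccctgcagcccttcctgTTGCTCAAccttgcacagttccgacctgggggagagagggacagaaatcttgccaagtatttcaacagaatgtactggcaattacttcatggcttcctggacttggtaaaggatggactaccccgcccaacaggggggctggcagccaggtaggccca
Serpina3n: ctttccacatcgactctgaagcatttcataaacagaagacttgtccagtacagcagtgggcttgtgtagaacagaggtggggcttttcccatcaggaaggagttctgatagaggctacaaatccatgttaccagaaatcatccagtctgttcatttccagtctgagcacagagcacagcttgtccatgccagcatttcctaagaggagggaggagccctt
The Saa3 window held a C/EBP match that begins 99 bases before the start site, and overlapping TATA matches that begin 55, 53 and 51 bases before it. In Lcn2 a C/EBP match began 216 bases before the start site. The Serpina3n window held none of the motifs, although a looser NF-kB pattern tried earlier did match there. The STAT and NF-kB letters were not in any of the 3 windows. Of all 32851 windows of 300 bases, 10.8% held the C/EBP letters, 4.51% the NF-kB letters, 8.3% the STAT letters and 18.0% the TATA letters. The sequences printed above are shorter, at 220 bases for Saa3 and Serpina3n and 192 bases for Lcn2. The shares are thus not matched to them in length. These matches describe the letters of each window and are not bound sites.

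All 5 members had their highest level in knockout replicate 3. In that library each was at least 2-fold above every other library on the log2 CPM scale with 2 counts added, which is what the choice of members rested on. Of all 16982 genes, 697 (4.1%) met the same criterion in knockout replicate 3, and 22 to 81 genes met it in each of the other 5 libraries (0.177%, 0.153% and 0.13% in WT, 0.465% and 0.477% in knockout replicates 1 and 2). The 5 genes together took 0.124% of all counts of knockout replicate 3 (95% exact binomial interval 0.122% to 0.125%) and 0.00259% to 0.0043% in the other libraries.

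Saa3 encodes serum amyloid A3, an apolipoprotein made mainly outside the liver. Its counts were 2, 6 and 10 in WT replicates 1 to 3, 35 and 51 in knockout replicates 1 and 2, and 14472 in knockout replicate 3. All 3 knockout libraries lay above all 3 WT libraries, as for 26.6% of tested genes, and the third lay far above both others. The means were 0.285 ± 0.190 CPM in WT and 231 ± 397 CPM in knockout cells (SD, n = 3 each). Knockout replicate 3 was 2420-fold above the WT mean, with a 95% interval of 1530 to 4083 for counting error only. It was 285-fold above knockout replicate 2, the next highest library.

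Lcn2 encodes lipocalin-2, which binds bacterial siderophores and so withholds iron from bacteria. WT replicates 1 to 3 held 0, 0 and 1 counts, knockout replicates 1 and 2 held 0 and 3, and knockout replicate 3 held 2874. Outside that library the gene was at or under 3 counts, the level below which a count is read as background here. Its ratio to the WT mean was 8654, with a 95% counting interval of 1551 to 341700 because the WT libraries held a single count. Of its counts, 99.9% came from knockout replicate 3, and it had the widest gap of all 16982 genes between that library and the next highest. The gene did not pass the filter on low counts and has no fitted fold change.

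Hp encodes haptoglobin, which binds free haemoglobin. It had 43, 40 and 38 counts in WT, 33 in both knockout replicates 1 and 2, and 1638 in knockout replicate 3. In contrast to Saa3, the first 2 knockout libraries lay slightly below WT. The WT mean was 1.92 ± 0.121 CPM (SD, n = 3), and knockout replicate 3, at 78.0 CPM, was 40.7-fold above it.

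Serpina3n encodes a secreted serine protease inhibitor, a mouse counterpart of human alpha-1-antichymotrypsin. WT replicates 1 to 3 held 25, 279 and 215 counts, knockout replicates 1 and 2 held 54 and 88, and knockout replicate 3 held 5891. WT libraries alone spanned 11.1-fold, so knockout replicates 1 and 2 fell within the WT range. Knockout replicate 3, at 281 CPM, was 34.2-fold above the WT mean and 21.2-fold above WT replicate 2. The summed level of 12 macrophage markers was also lowest in WT replicate 1, at 64.9 CPM against 140 and 116 CPM in WT replicates 2 and 3. In knockout replicates 1 and 2 that sum was 108 and 67.7 CPM, beside 2.58 and 4.18 CPM of Serpina3n. What part the macrophage level has in the Serpina3n level was not tested.

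Lbp encodes the lipopolysaccharide-binding protein, which passes lipopolysaccharide to CD14. Per kilobase it had the highest level of the 5 in every library but knockout replicate 3, with 473, 564 and 593 counts in WT, 468 and 388 in knockout replicates 1 and 2, and 1695 in knockout replicate 3. Its rise was the smallest of the 5, 3.13-fold over the WT mean and 2.87-fold over the highest other library. By the size of the gap between knockout replicate 3 and the next library, Lcn2, Saa3, Hp, Serpina3n and Lbp held places 1, 3, 9, 12 and 346 among all genes.

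**Figure D1:**
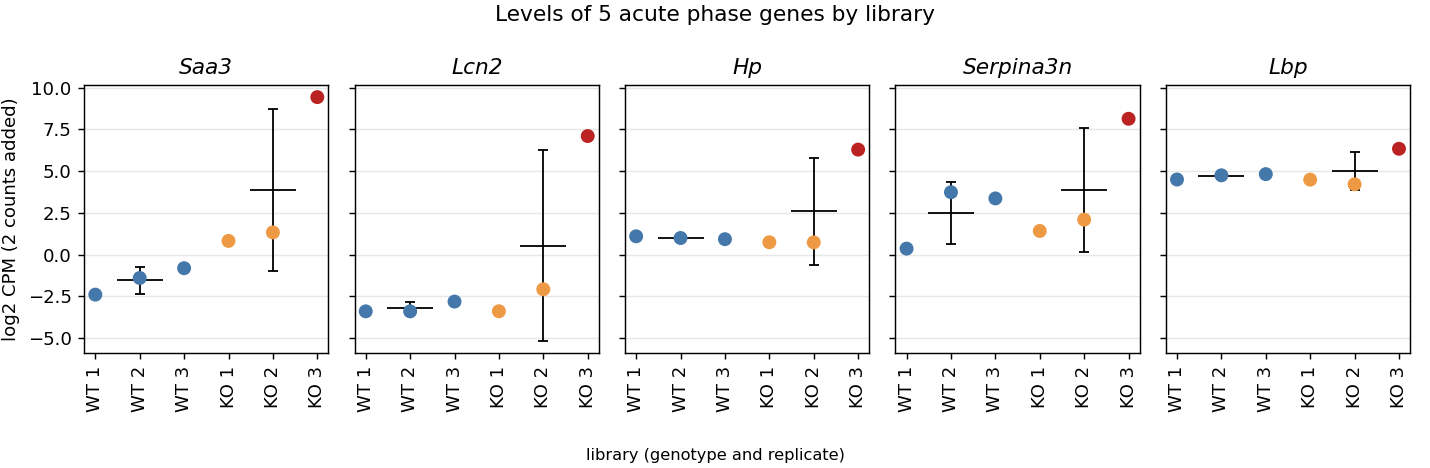
Each panel plots the log2 CPM (2 counts added) of 1 gene in the 3 WT libraries (blue), knockout replicates 1 and 2 (orange) and knockout replicate 3 (red), and the bars give mean ± SD of each genotype (n = 3). The red point is the highest of each panel, from 689 CPM for Saa3 to 78.0 CPM for Hp, and the WT libraries of Serpina3n are spread from 1.19 to 13.2 CPM.

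Per kilobase of the gene length in the count table, Saa3 had the highest level in knockout replicate 3, at 313 CPM per kb, followed by Serpina3n at 136, Lcn2 at 115, Hp at 58.0 and Lbp at 31.97 CPM per kb. In WT replicate 1 the order was different, with Lbp first at 8.91 CPM per kb and Lcn2 without a count. The deposited FPKM of Saa3 in knockout replicate 3 was 2102, place 35 of the 12633 genes with FPKM. The count table gives Saa3 a length of 2200 bases, that of its transcript with 2 exons, whereas its transcript with 4 exons is 555 bases long, and the level per kilobase depends on which is used. Lcn2 had no FPKM value.

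Because 1 library set the rise, the fit across all 6 libraries, a quasi-likelihood model of the counts in edgeR, gave large standard errors. Fitted log2 fold changes of knockout over WT were 9.63 (standard error 2.99) for Saa3, 3.82 (1.57) for Hp, 3.54 (1.80) for Serpina3n and 0.65 (0.55) for Lbp. No p-value is given for them, since the members were picked from this contrast. Without knockout replicate 3 the same fit gave 2.82, -0.28, -1.28 and -0.34, so all but Saa3 changed sign.

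Knockout replicates 1 and 2 were not where the choice looked for a rise, although the choice did rest on their lying below knockout replicate 3. Compared with WT, they held 7.18-fold more Saa3 (log2 fold change 2.82, standard error 0.49, in an edgeR fit of 13529 genes). Saa3 was low in both genotypes, at a mean of 0.285 CPM in WT and 2.05 CPM in these 2 libraries. By the same model the log2 fold changes of Lbp, Hp and Serpina3n were -0.34 (standard error 0.12), -0.28 (0.29) and -1.28 (0.68). No p-value is given for the members here either, since their choice read these 5 libraries as well. Over all genes in this comparison 23.9% were higher and 24.2% lower at an adjusted p under 0.05, so passing it was common. The stricter threshold of the study was an adjusted p under 0.01, absolute log2 fold change over 1 and mean FPKM over 1 in a genotype. It was passed by 2.22% of genes in the upward direction. The test compares 2 libraries with 3.

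The sharing of 1 library also set how the members varied together. Over the 6 libraries the Pearson correlation of log2 CPM was 0.851 to 0.986 for the 10 pairs of members. Over the 5 libraries without knockout replicate 3 it was -0.995 to 0.618, and 5 of 10 pairs were negative. Points of these correlations share the libraries, and each rests on 6 or 5 values.

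Genomic positions do not place the 5 genes together. In GRCm38, Saa3 lies at chr7:46711998-46715700 and Lcn2 at chr2:32384633-32388252, both on the minus strand. Hp lies at chr8:109575128-109579172 on the minus strand. Serpina3n lies at chr12:104406729-104414329 and Lbp at chr2:158306493-158332852, both on the plus strand. No exon of another annotated gene overlaps theirs. Serpina3n belongs to a family of close copies, and 0.204% of its 100-base stretches and 6.9% of its 50-base stretches also occur in other genes, those of the Serpina3 cluster. Reads from those stretches could be assigned to either gene. For the other 4 members no 100-base stretch was shared. Of 50-base stretches, 3.57% of those of Saa3 and 0.187% of those of Lbp occur in other genes as well, 245 genes in each case, and none of those of Lcn2 and Hp do.

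Around the members in the ranking by gap stood genes of inflammation that were named after their values were seen. Marco, a scavenger receptor of macrophages, had 778 counts in knockout replicate 3 and 0 in the other 5 libraries, at least 259-fold higher than a floor of 3 counts in a library. Acod1, which makes itaconate, had 370 counts there and 0 elsewhere, at least 123-fold higher by the same floor. Nos2, the inducible nitric oxide synthase, had 239 counts there and at most 1 elsewhere. Ccl20 and Cxcl1 encode chemokines, and they had 845 and 3603 counts there against at most 12 and 135 in any other library.

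**Figure D2:**
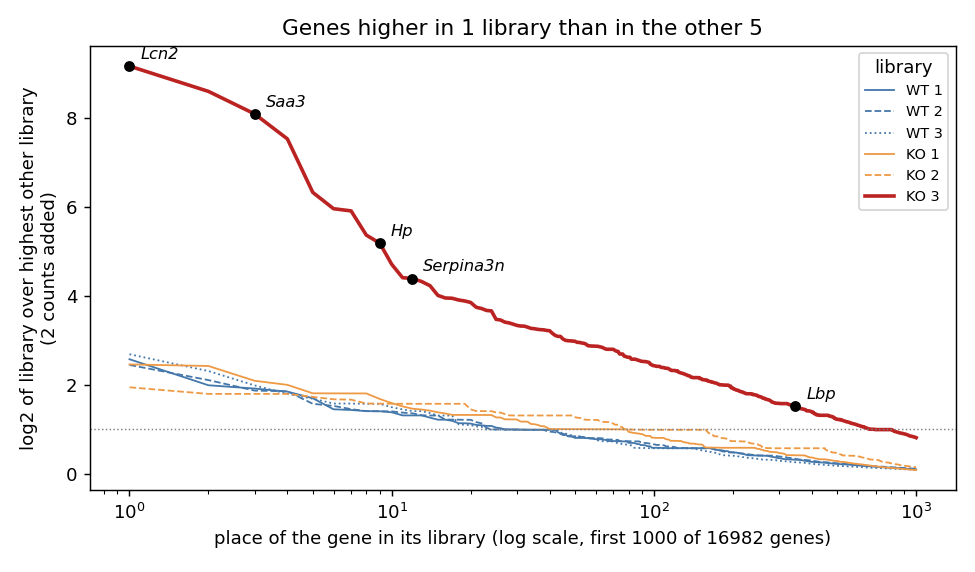
For each library the plot gives the log2 ratio of its level to the highest other library (2 counts added) for the 1000 genes with the largest ratio, in order and on a log scale of place, with a dotted line at 2-fold. Knockout replicate 3 (red) starts at Lcn2 in place 1 and passes Saa3, Hp and Serpina3n before place 13, and 697 of its genes lie above the line against 22 to 81 in the other libraries.

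Of 46 other acute phase genes, 26 were in the table and 16 passed the filter on counts. On the scale with 2 counts added, 12 of the 26 were at least 2-fold above every other library in knockout replicate 3 (46.2%, against 4.1% of all genes). These were Saa2, Orm1, Cp, A2m, Serpina3c, Serpina3f, Serpina3i, C3, Mt2, Ptx3, Steap4 and Chil1. Saa2 and Orm1, which in mice are made mainly by the liver, stayed near the floor, with 4 and 5 counts in knockout replicate 3 and 0 elsewhere. Against a floor of 3 counts in a library they were at least 1.33-fold and 1.66-fold higher, under the 2-fold criterion, which leaves 10 of the 26. The largest gap was that of Steap4, a metalloreductase, which held 55, 40 and 50 counts in WT, 51 and 59 in knockout replicates 1 and 2, and 3798 in knockout replicate 3. Its first 2 knockout libraries overlapped WT, as those of Lcn2 did.

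Cp and C3 were the next in size. Cp, which encodes the copper-carrying ferroxidase ceruloplasmin, had 86, 84 and 99 counts in WT, 237 and 301 in knockout replicates 1 and 2, and 6065 in knockout replicate 3. All knockout libraries of Cp lay above all WT libraries, as for 26.6% of tested genes. C3, the central complement component, had 238, 276 and 310 counts in WT. It had 338 and 348 in knockout replicates 1 and 2, and 6559 in knockout replicate 3, also without overlap. In the fit of all 6 libraries C3 did not pass (log2 fold change 3.14, adjusted p = 0.0855 in edgeR).

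In the fit across all 6 libraries the median log2 fold change of these 16 was 1.12, against -0.00032 over all 13386 genes tested. By the threshold of the study 1 of the 16 was called higher and 0 lower, with 1.5% and 2.08% of all genes called in those directions. Beside this 0, 1 gene was lower at an unadjusted p under 0.05 in edgeR and 1 was called lower by DESeq2. The called gene was Il1rn, which encodes the IL-1 receptor antagonist. It held 1038, 833 and 895 counts in WT and 2746, 2214 and 4454 in knockout replicates 1 to 3, without overlap (log2 fold change 1.77, standard error 0.26, adjusted p = 0.00603 in edgeR). With DESeq2 5 were called higher. Leaving out any library but knockout replicate 3 left 0 called higher in edgeR, and 7 to 10 were then higher at an unadjusted p under 0.05.

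At an adjusted p under 0.05 in the same test 6 of the 16 rose and 1 fell, with 16.4% and 16.6% of all genes. Cp (log2 fold change 4.62, standard error 1.37), Serpina3i (2.98, 0.85) and Serpina3f (2.88, 0.85) rose most, with an adjusted p of 0.0419, 0.0372 and 0.0408 in edgeR. For Cp the adjusted p was 0.0942 with the replicate number as a block and 0.128 to 0.136 without any 1 WT library, in edgeR. The metallothioneins Mt1 and Mt2, which bind zinc and copper, rose by 1.08 and 1.61 on the log2 scale, and C4b, a complement component, fell by 1.55. In the fit of the 5 libraries without knockout replicate 3 they were 0.67 for Mt1, 0.91 for Mt2 and 1.65 for Serpina3i, each past an adjusted p of 0.05 in edgeR. Serpina3f and Serpina3i share their family with Serpina3n. Serpina3f also shares 50-base stretches with Serpina3n, so its reads are subject to the same limit. Serpina3i was not among the genes that shared such stretches with Serpina3n. Serpina3j, of the same family, was instead highest in knockout replicate 1, with 224 counts against 30 to 108 in the others.

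Without knockout replicate 3 the list had a median of 0.63 (all genes -0.0068). At an adjusted p under 0.05 in edgeR 9 genes were higher and 2 lower, beside 23.9% and 24.2% of all genes. By the threshold of the study 3 were higher and 1 lower, beside 2.22% and 3.63% of all genes. Its genes split by how much of their change was shared between the knockout libraries. Cp (log2 fold change 1.59), Serpina3f (1.32) and Il1rn (1.43) were called higher in knockout replicates 1 and 2 and C4b (-1.18) lower. Steap4 (0.19), A2m (0.019) and Ptx3 (0.27) did not pass in these libraries, with an adjusted p of 0.582, 0.968 and 0.0583 in edgeR.

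**Figure D3:**
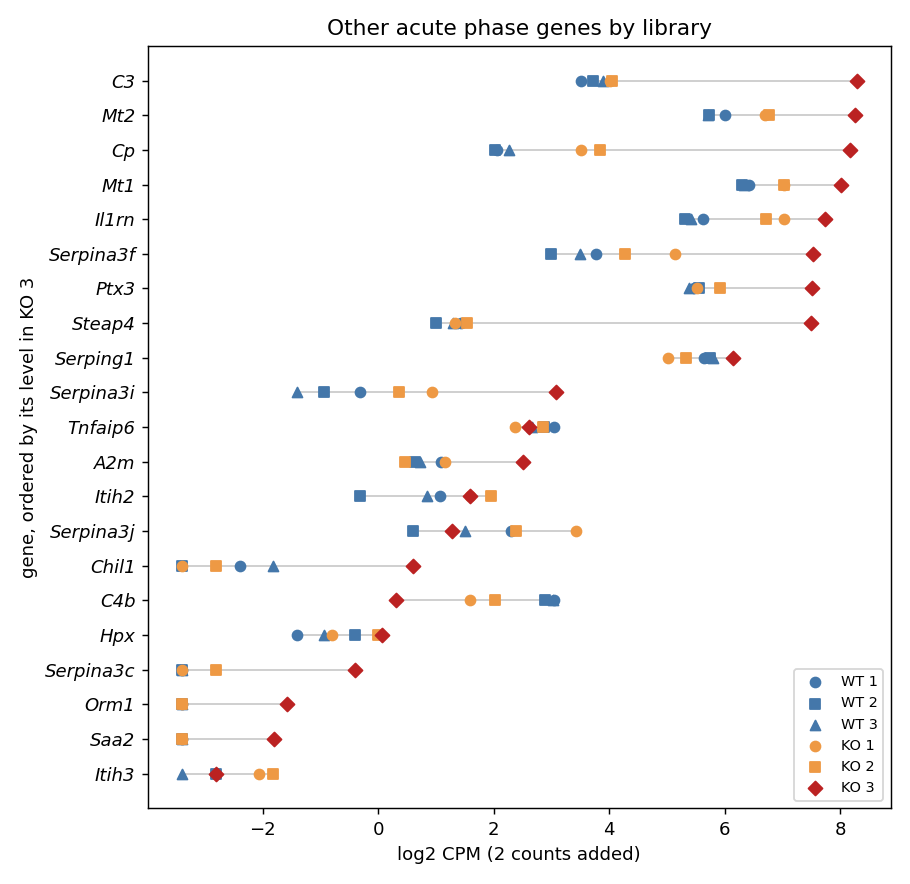
Log2 CPM (2 counts added) is plotted for the 21 other acute phase genes with more than 3 counts in some library, with WT libraries in blue, knockout replicates 1 and 2 in orange and knockout replicate 3 as red diamonds. In Steap4 the red diamond stands alone, at 181 CPM. In C3 it stands far to the right, at 312 CPM, with the orange points only slightly to the right of the blue ones. In Il1rn and Mt2 the orange points also lie to the right of the blue ones.

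Ligands that act upstream of acute phase genes differed in the same library. Il6 had 10, 4 and 5 counts in WT, 31 and 37 in knockout replicates 1 and 2, and 602 in knockout replicate 3. No libraries overlapped between genotypes, as for 26.6% of tested genes with the knockout higher. Knockout replicate 3 was 16.3-fold above the next. The fitted difference on the log2 scale was 5.12 (standard error 1.44, adjusted p = 0.0358 in edgeR), and 2.41 without knockout replicate 3 (adjusted p = 0.00147 in edgeR). Lif, an IL-6 family cytokine, had 121 to 150 counts in WT, 230 and 238 in knockout replicates 1 and 2 and 945 in knockout replicate 3 (log2 fold change 1.83, adjusted p = 0.0498 in edgeR). For Lif the difference was 0.82 without knockout replicate 3 (adjusted p = 0.00107 in edgeR). The call in all libraries was lost with library size alone (adjusted p = 0.0541), with no filter on low counts (0.0517) and without any 1 WT library (0.132 to 0.147 in edgeR).

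Of the 14 genes of the IL-6 family and its receptors, 12 were tested, and 3 rose and 2 fell at an adjusted p under 0.05 in edgeR, beside 16.4% and 16.6% of all genes. In the 5 libraries without knockout replicate 3, 4 rose and 2 fell, beside 23.9% and 24.2%. Next to Il6 and Lif, Il6ra, which encodes the IL-6 receptor, rose (log2 fold change 0.90, and 0.60 without knockout replicate 3). Il11ra1, the IL-11 receptor, fell by 1.22 and was the 1 gene called by the threshold of the study, and Lifr fell by 0.36. These were -1.18 and -0.38 without knockout replicate 3. Osmr, the oncostatin M receptor, had 1662 to 1776 counts in WT, 2236 and 2445 in knockout replicates 1 and 2 and 4761 in knockout replicate 3 (log2 fold change 0.87, adjusted p = 0.0542 in edgeR). Il6st, which encodes gp130, was the most abundant by FPKM and differed little, from 11690 to 11872 counts in WT and 10928 to 13313 in knockout libraries. Il6 and Lif were the 2 of 14 genes (14.3%, against 4.1% of all genes) at least 2-fold above all other libraries in knockout replicate 3.

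Among 16 genes of JAK-STAT3 signalling, all tested, 4 rose and 0 fell at an adjusted p under 0.05 in edgeR, beside 16.4% and 16.6% of all genes, with 8 higher and 0 lower at an unadjusted p under 0.05. In the fit that omits knockout replicate 3, 9 rose and 1 fell at an adjusted p under 0.05, beside 23.9% and 24.2%. By the threshold of the study 0 were called in edgeR and 1 higher in DESeq2. The 4 genes that rose had log2 fold changes of 0.82 (Fosl2), 0.51 (Ptpn11), 0.51 (Bcl6) and 0.27 (Jak1), and of 0.53, 0.43, 0.49 and 0.27 without knockout replicate 3. Stat3 had 5104 to 5282 counts in WT and 5502 to 5968 in knockout cells (log2 fold change 0.15, adjusted p = 0.111 in edgeR), and passed without knockout replicate 3 (0.19, adjusted p = 0.0101 in edgeR). Socs3, the feedback inhibitor of this pathway, had 1357 to 1560 counts in WT, 1971 and 1765 in knockout replicates 1 and 2 and 3833 in knockout replicate 3. Pim1 and Il4ra were the 2 of 16 genes (12.5%, against 4.1% of all genes) at least 2-fold above all other libraries in knockout replicate 3.

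The C/EBP factors did not move as 1 group. Cebpd, which encodes C/EBPdelta, had 94, 77 and 113 counts in WT, 399 and 312 in knockout replicates 1 and 2 and 1215 in knockout replicate 3 (log2 fold change 2.76, standard error 0.55, adjusted p = 0.0130 in edgeR). All 3 knockout libraries of Cebpd were above WT, as for 26.6% of tested genes. Leaving out any 1 WT library put its adjusted p at 0.0548 to 0.0624 in edgeR. Cebpb had 969 to 1112 counts in WT, 1365 and 1302 in knockout replicates 1 and 2 and 3491 in knockout replicate 3, and did not pass the test (adjusted p = 0.0951 in edgeR). Cebpb passed it without knockout replicate 3 (log2 fold change 0.34, adjusted p = 0.00412 in edgeR). Cebpa went the other way, from 537, 448 and 506 counts in WT to 183, 155 and 88 in knockout cells, and was called lower (log2 fold change -1.80, adjusted p = 0.00561 in edgeR). Ddit3, a stress-induced member of the family, was called higher (log2 fold change 1.02, adjusted p = 0.00652 in edgeR). Cebpd, Cebpa and Ddit3 differed by 1.91, -1.55 and 0.94 without knockout replicate 3. Cebpz, a gene listed beside these factors, differed by -0.099 in all libraries and 0.033 without knockout replicate 3.

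IL-1, TNF and the Toll-like receptors are the second route to these genes. Il1b had 81 counts in knockout replicate 3 and 0 in the other libraries, at least 26.9-fold higher by the floor of 3 counts. Il1a had 49 counts there and at most 2 elsewhere, and Tnf had 63 and at most 5. Of 22 genes of this pathway in the table, 9 (40.9%, against 4.1% of all genes) were at least 2-fold above all other libraries in knockout replicate 3. Beside the cytokines Il1a, Il1b, Tnf and Il33 and the kinase Irak2, these were the receptors Tlr2, Cd14 and Tnfrsf1b and the receptor accessory protein Il1rap.

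Il1rap was high in knockout replicate 3 alone, with 330, 340 and 316 counts in WT, 296 and 334 in knockout replicates 1 and 2, and 1499 in knockout replicate 3. Other genes of the pathway differed in all knockout libraries. Il33, an IL-1 family cytokine, had 56, 44 and 43 counts in WT and 183, 155 and 393 in knockout cells, and was called higher (log2 fold change 2.36, adjusted p = 0.00798 in edgeR). Tlr3, Irak2 and Tlr4 rose at an adjusted p under 0.05 in edgeR, by 1.84, 1.46 and 1.16 on the log2 scale, and Il1r1, the signalling receptor of IL-1, fell by 0.83. The same differences without knockout replicate 3 were 1.55, 1.01, 0.89 and -0.88. With Il33, 4 of the 19 genes tested rose and 1 fell, beside 16.4% and 16.6% of all genes, and 6 rose and 2 fell in the 5 libraries, beside 23.9% and 24.2%. The 3 genes with the highest FPKM, Tnfrsf1a, Irak1 and Myd88, had log2 fold changes of 0.23, -0.19 and 0.12 and did not pass. Without knockout replicate 3 their values were 0.099, -0.30 and -0.045, and of these Irak1 passed (adjusted p = 0.00179 in edgeR).

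All 16 genes of NF-kB subunits and their feedback inhibitors were highest in knockout replicate 3, where 34.2% of all genes were highest. At least 2-fold above every other library there were 8 of the 16, against 4.1% of all genes, namely Nfkb1, Nfkbia, Nfkbie, Nfkbiz, Ikbke, Tnfaip3, Tnip1 and Tnip3. Nfkbia, which encodes the inhibitor IkBalpha and is itself induced by NF-kB, had 734, 777 and 764 counts in WT, 838 and 836 in knockout replicates 1 and 2 and 3554 in knockout replicate 3. Tnip3 had 0, 0 and 1 counts in WT, 7 and 11 in knockout replicates 1 and 2 and 114 in knockout replicate 3. The subunit genes Rela and Nfkb2 had 2042 and 1410 counts in that library and at most 1562 and 1087 elsewhere.

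Of the 15 NF-kB genes tested 4 rose and 0 fell at an adjusted p under 0.05, beside 16.4% and 16.6% of all genes, with 5 higher and 0 lower at an unadjusted p under 0.05 in edgeR. By the threshold of the study 0 were called in edgeR and 2 higher in DESeq2. The 4 that rose were Tnfaip3, the deubiquitinase A20 (log2 fold change 1.996), Nfkbiz (1.36), Cyld (0.59) and Ikbkb (0.32), with an adjusted p of 0.0342, 0.0301, 0.0188 and 0.0376 in edgeR. Without knockout replicate 3 the median of the list was 0.14, against 0.45 with it. Nfkbiz had a log2 fold change of 0.79 and Tnfaip3 of 1.06 in the 5 libraries, both past an adjusted p of 0.01, Cyld of 0.43, Ikbkb of 0.24 and Nfkbia of 0.15 (adjusted p = 0.0959 in edgeR).

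**Figure D4:**
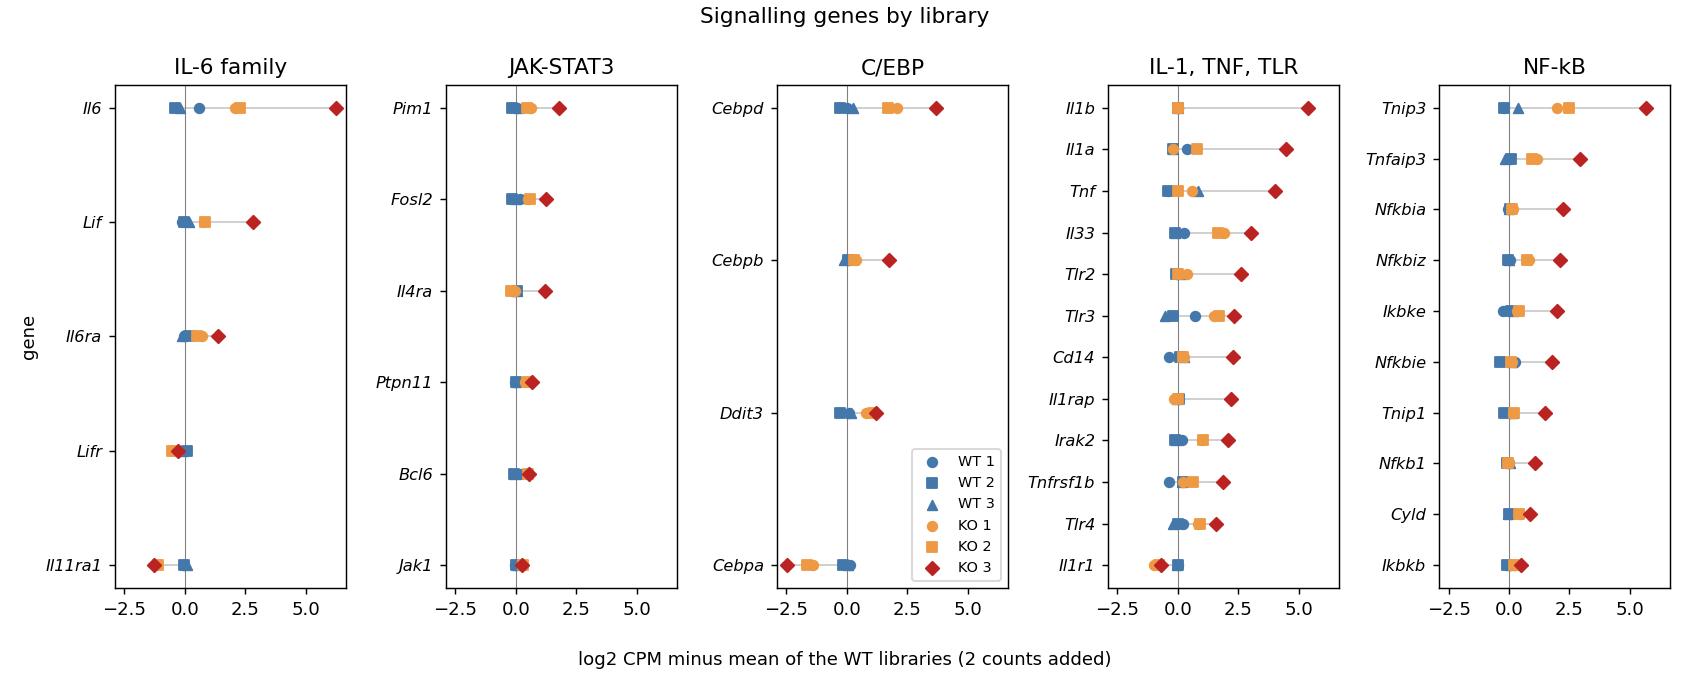
Genes of 5 signalling lists that passed an adjusted p under 0.05 or were at least 2-fold above all other libraries in knockout replicate 3 are plotted as log2 CPM minus the mean of the WT libraries (2 counts added), with WT in blue, knockout replicates 1 and 2 in orange and knockout replicate 3 in red. Il6 and Cebpd have orange points above WT and a red point beyond them. Nfkbia has orange points only slightly above WT and a red point far beyond them, and Il1rap has a red point alone. Cebpa and Il11ra1 lie below WT in all knockout libraries.

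Of 14 receptors and partners of the member proteins in the table, 4 (28.6%, against 4.1% of all genes) were at least 2-fold above all other libraries in knockout replicate 3, namely Cd36, Mmp9, Fpr1 and Fpr2. Of the 9 tested, 2 rose and 1 fell at an adjusted p under 0.05 in edgeR, beside 16.4% and 16.6% of all genes. Lrp2 encodes megalin, an endocytic receptor for lipocalin-2, and was called higher, with 143 to 164 counts in WT and 307 to 358 in knockout cells (log2 fold change 1.11, adjusted p = 0.00321 in edgeR). Its level in knockout replicate 3 lay between those of knockout replicates 1 and 2. Slc22a17, another lipocalin-2 receptor, had 727 to 783 counts in WT and 545 to 741 in knockout cells and did not pass the test (adjusted p = 0.174 in edgeR). Cd163, the receptor for haptoglobin bound to haemoglobin, was at 0 or 1 count in every library. Scarb1, a scavenger receptor that binds serum amyloid A, fell by 0.63, and Ctsb, a lysosomal protease, rose by 0.43 on the log2 scale. Lrp2, Scarb1 and Ctsb differed by 1.13, -0.60 and 0.29 without knockout replicate 3. Lrp1, an endocytic receptor and the most abundant of the list by FPKM, had 41715 to 46744 counts in WT, 57361 and 60171 in knockout replicates 1 and 2 and 30690 in knockout replicate 3, its lowest library. Its log2 fold change was 0.16 in all libraries (adjusted p = 0.627 in edgeR) and 0.42 without knockout replicate 3 (adjusted p = 0.000585 in edgeR).

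Iron handling was read because lipocalin-2 and haptoglobin bear on it. Of its 12 genes in the table, all tested, 4 rose and 2 fell at an adjusted p under 0.05 in edgeR, beside 16.4% and 16.6% of all genes. Leaving out knockout replicate 3 gave 8 and 2, beside 23.9% and 24.2%. Hmox1, the haem oxygenase, was called higher, with 1016, 853 and 964 counts in WT and 2155, 2280 and 3675 in knockout cells (log2 fold change 1.52, adjusted p = 0.00553 in edgeR). Fth1, the ferritin heavy chain, had 6301 to 6484 counts in WT, 9430 and 8704 in knockout replicates 1 and 2 and 27543 in knockout replicate 3, and was the 1 gene of 12 (8.33%, against 4.1% of all genes) at least 2-fold above all others there. Slc11a2, an iron importer, rose by 0.87, the ferritin light chain Ftl1 by 0.58 and the transferrin receptor Tfrc by 0.49 on the log2 scale. The ferroxidase Heph fell by 1.45 and the ferrireductase Steap3 fell by 0.78. In the 5 libraries the differences were 1.24 for Hmox1, 0.48 for Slc11a2, 0.38 for Ftl1, 0.52 for Tfrc, -1.30 for Heph and -0.84 for Steap3. Slc40a1, the iron exporter ferroportin, was instead at least 2-fold below all other libraries in knockout replicate 3, as were 3.66% of all genes, with 78 counts against 260 to 322.

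The 10 genes whose pattern over the 6 libraries was most like the members, by Pearson correlation of log2 CPM with their mean standardized level among 4266 genes, were Foxs1, Mfsd7a, C3, Nfkbia, Il1rap, Tmem176a, Sod2, Akr1c18, Nfkb1 and Cd14, with r from 0.994 to 0.986. All points share the 6 libraries, and the pattern is that of 1 high library. Levels of the 10 in knockout replicate 3 were 2.04-fold (Nfkb1) to 18.9-fold (C3) above the highest other library. Without knockout replicate 3, C3 alone of them passed an adjusted p under 0.05 in edgeR (log2 fold change 0.33, adjusted p = 0.0467).

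Markers of other cell types were summed in each library, since a culture of MEF can hold other cells, and in bulk RNA a change in the number of cells of a type and a change in RNA per cell cannot be told apart. Fibroblast markers, 10 of 10 in the table and none at 0, summed to 26580 to 33010 CPM in the other libraries and 17770 CPM in knockout replicate 3. Most of that drop lay in the collagens, with Col1a1 at 148384 counts against 195546 to 275399, Col1a2 at 91877 against 140496 to 189734 and Col3a1 at 39882 against 105237 to 144358. Lum, Pdgfra and Thy1 were also lowest in knockout replicate 3, at 447, 1047 and 1647 counts against 1614 to 3404, 2047 to 4673 and 1764 to 4047. Dcn and S100a4 were highest in knockout replicate 3, at 5105 and 3863 counts against 3343 to 4240 and 2757 to 3263. Vim and Pdgfrb were within the range of the others. Pdgfra and Thy1 were lower in knockout cells, by -1.22 and -1.11 on the log2 scale in all libraries and -0.95 and -1.06 without knockout replicate 3. Macrophage markers, 12 of 12 in the table and none at 0, summed to 64.9 to 140 CPM in the other libraries and 258 CPM in knockout replicate 3. Hepatocyte markers, 5 of 10 in the table, summed to 0.810 CPM in knockout replicate 3 and 0.617 to 1.19 CPM elsewhere, with Apoh at 0 and Alb at 1 count in that library.

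Of the 12 macrophage markers 7 were highest in knockout replicate 3, where 34.2% of all genes were highest. Adgre1, which encodes F4/80, had 37 to 90 counts in the other libraries and 670 in knockout replicate 3, Lyz2 had 537 to 1222 and 3329, and Fcer1g had 25 to 51 and 210. Itgam had 22 to 67 counts in the other libraries and 133 in knockout replicate 3, Csf1r had 115 to 165 and 256, Ptprc had 24 to 65 and 103, and Tyrobp had 28 to 81 and 98. Cd68, C1qa, C1qb and C1qc stayed within the range of the other libraries or below it, at 180, 78, 187 and 143 counts, and Mrc1 was at 40 counts against 122 to 374. Neutrophil markers, 7 of 10 in the table, summed to 4.33 CPM against 0.142 to 0.855 CPM, with Ltf at 48, Camp at 21, S100a8 at 13 counts and Ly6g at 1. Epithelial markers, 9 of 10 in the table, were lower in that library, at 24.0 CPM against 59.7 to 85.7 CPM, with Krt8 at 15 counts against 261 to 637, Krt14 at 35 against 101 to 169 and Krt19 at 386 against 267 to 905. Adipocyte markers (13.5 CPM) were within the range of the other libraries, with Fabp4, Lipe and Pparg at 67, 148 and 27 counts. Endothelial markers (49.3 CPM) lay slightly below it, with Tek at 646 counts against 981 to 1352 and Flt1 at 330 against 149 to 218. What part these shifts have in the levels of the 5 members was not tested.

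**Figure D5:**
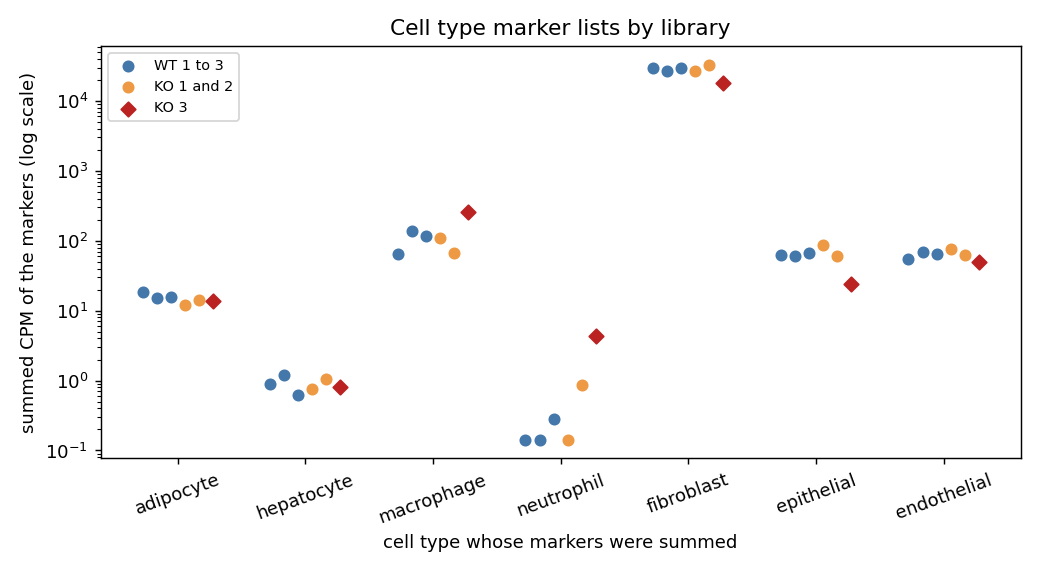
Summed CPM of 7 cell type marker lists is plotted on a log scale for WT libraries (blue), knockout replicates 1 and 2 (orange) and knockout replicate 3 (red diamonds), in library order within each list. The red diamond is the highest for macrophage (258 CPM) and neutrophil (4.33 CPM) markers and the lowest for fibroblast (17770 CPM) and epithelial (24.0 CPM) markers.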

How the data were processed

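Stranded mRNA libraries were made by the authors (TruSeq, Illumina HiSeq, paired-end). RNA of day 3 cells was sequenced in 6 libraries, 3 of each genotype. Groups and replicate numbers came from the sample titles and genotype labels. Nothing in the labels says that replicates were separate cultures, so p-values measure only the spread between these libraries. The authors aligned reads to GRCm38/mm10 with HISAT2 (2.1.0) and deposited raw counts per gene with gene lengths. The counting program and its use of strand are not given in the sources used here. The authors also deposited FPKM values from Cufflinks (2.1.1) for 12633 genes, used here for the expression threshold and as an alternative unit. The deposited table further holds the authors' own log2 fold changes and FDR p-values, which were not used.

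Counts were analysed in R 4.3.3 with edgeR 4.0.16 (TMM factors, filterByExpr at its defaults, 13386 genes tested, quasi-likelihood F-test without covariates, p-values adjusted by Benjamini-Hochberg over all genes tested). Calls used the thresholds of the study's methods, namely an adjusted p below 0.01, a log2 fold change beyond 1 in size and, in 1 genotype, a mean FPKM above 1. A second rule used an adjusted p under 0.05. Log2 CPM values had 2 counts added. A floor of 3 counts equals 0.142 to 0.143 CPM. PCR copies carry no molecular identifiers, so intervals and floors cover counting error only. On simulated counts for 13271 genes, edgeR recovered 94.5% of the 200 genes given a log2 shift of 2, with 3 false calls, and DESeq2 1.42.0 recovered 97.5% with 16. Simulated libraries of a genotype shared the same mean levels, so none stood apart as knockout replicate 3 did. These rates therefore need not hold for the fits given here. Positions and transcripts came from GENCODE M21 of GRCm38, which held 16525 of the 16982 identifiers.

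The 5 members and all gene lists were chosen with earlier results of these data known. A listed gene is not reported here and was left out of its list. From each list the text names genes called or at an adjusted p under 0.05 (at most 4 per direction by size), the 3 with the highest mean FPKM, and genes whose level in 1 library is at least 2 times that in each other library. It also names the members, Rnf20 and the 10 genes most like the members. Genes outside this rule are given as examples of a list and were chosen after their values were seen. Alternatives were other size factors, DESeq2, other count filters, 0.5 counts added, FPKM with 0.1 added, the replicate number as a block and each library left out.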

Additional observations from a re-analysis of the deposited data

How the results depend on the processing

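How many genes were called varied with the tool and with the libraries used, and the cause was not tested. Over all genes 201 were called higher and 279 lower, 417 and 565 with DESeq2, and 2195 and 2218 at an adjusted p under 0.05 at any size. With library size alone for scaling, the last pair was 1750 and 2684. Leaving out each library in turn gave 0 to 300 higher and 1 to 491 lower, both highest without knockout replicate 3. The 0 came without WT replicate 3, where 2356 genes were higher at an unadjusted p under 0.05 in edgeR. Of the other acute phase genes 1 was called higher and 0 lower, 5 and 1 with DESeq2, 6 and 1 at an adjusted p under 0.05, and 0 to 3 and 0 to 1 with each library left out.

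Deviations of same-numbered WT and knockout libraries from their group means correlated at -0.066, 0.037 and 0.011. Knockout replicate 3 stood apart and so weighs on the deviations of every knockout library. These values therefore cannot show whether the replicate numbers pair the libraries. With a replicate block 0 genes were called in either direction, of all genes and of the acute phase list, in edgeR, with 2694 higher and 2858 lower at an unadjusted p under 0.05 (7 and 1 in the list). An adjusted p under 0.05 was lost by 19 named genes under the block, by 25, 29 and 29 without WT replicates 1, 2 and 3, and by 4 with library size alone. The fitted log2 fold changes under the block were 9.14 for Saa3, 1.75 for Hp, 1.54 for Serpina3n and 0.33 for Lbp.

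Knockout replicate 3 decided the members' values. Over the 6 fits that omit 1 library, the fitted log2 fold change was 2.82 to 10.22 for Saa3, -0.28 to 4.38 for Hp, -1.28 to 4.12 for Serpina3n and -0.34 to 1.004 for Lbp, lowest each time without that library. The difference of mean log2 CPM ranged from -0.27 to 2.51 for Hp, -0.73 to 2.63 for Serpina3n and -0.34 to 0.72 for Lbp. Il1rap (-0.056 to 1.49), Mfsd7a (-0.19 to 1.15), Nfkb1 (-0.021 to 0.65), Sod2 (-0.019 to 0.68) and Tmem176a (-0.092 to 1.30) also changed sign there. Other size factors, count filters, 0.5 counts added and FPKM kept the direction of every member they gave a value for. Depth limits Lcn2, which had at most 3 counts outside knockout replicate 3.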
